A study of Homo sapiens with 16 samples.

Results

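The NKG2D ligands are the 8 human genes ULBP1, ULBP2, ULBP3, RAET1E, RAET1G, RAET1L, MICA and MICB. They were chosen by name as a whole gene family, with their values in these libraries already known, out of 56865 genes in the deposited tables. For that reason their levels, fold changes and calls are given as a description, with no p-value. RNA was sequenced in 16 libraries, 4 in each of 4 groups. Null DMSO and Null MS78 are NCI-H1299 cells, a line from a human non-small cell lung carcinoma that has no p53, exposed for 24 h to the vehicle DMSO or to 10 µM MS78. Y220C DMSO and Y220C MS78 are NCI-H1299 cells that stably express p53 Y220C, a mutant of the tumour suppressor p53 with an unstable fold, exposed in the same way. MS78 is a bifunctional compound designed to recruit the acetyltransferases p300/CBP to p53 Y220C. The p53-Y220C line was grown with 500 µg/mL G418 and the p53-null line without it, so line, transgene and G418 cannot be told apart. Whether the p53-Y220C line is 1 clone, and whether replicates came from separate cultures, is not given in the sources used here. The p-values printed for other genes therefore measure the spread between these libraries, which may be technical. The lists that hold those genes were also chosen with earlier results known. Their members were named mainly by the size of their change, so these p-values too are a description and not independent support.

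NKG2D is an activating receptor of natural killer cells and of many T cells, encoded by KLRK1, and it signals through the adaptor encoded by HCST. Its ligands are surface proteins that resemble MHC class I molecules, are scarce on most healthy cells and are induced by heat, DNA damage, infection and transformation. MICA and MICB lie in the MHC and are known to respond to heat shock through the factor HSF1. The ULBP and RAET1 genes form a separate cluster, in which ULBP1 is known as a target of the stress factor ATF4 and, with ULBP2, of p53. Proteases can release ligands from the cell surface, so a transcript level is not a surface level.

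All 8 genes are on chromosome 6 (GRCh38, GENCODE 29). MICA (ENSG00000204520) spans 31399784 to 31415315 and MICB (ENSG00000204516) spans 31494881 to 31511124, both on the plus strand. The other 6 genes lie between 149883375 and 150069095, with ULBP1 (ENSG00000111981) at 149964007 to 149973710 and ULBP2 (ENSG00000131015) at 149942000 to 149949235, both on the plus strand. The promoter table made from RefSeq (GRCh38.p14) held an entry for 8 of the 8 genes. The 250 bases before the RefSeq start are printed for MICA and MICB, the 2 most abundant ligands, and for ULBP1, the only ligand called lower under MS78 in a line, on the plus strand at chr6:31403345-31403594 for MICA, chr6:31497895-31498144 for MICB and chr6:149963693-149963942 for ULBP1. Capitals mark the letters that match the core of a heat shock element, GAANNTTC.
MICA: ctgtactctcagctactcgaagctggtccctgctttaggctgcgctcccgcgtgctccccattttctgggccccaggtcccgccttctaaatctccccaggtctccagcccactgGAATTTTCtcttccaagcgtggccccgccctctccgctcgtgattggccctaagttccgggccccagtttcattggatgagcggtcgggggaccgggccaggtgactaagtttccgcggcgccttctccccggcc
MICB: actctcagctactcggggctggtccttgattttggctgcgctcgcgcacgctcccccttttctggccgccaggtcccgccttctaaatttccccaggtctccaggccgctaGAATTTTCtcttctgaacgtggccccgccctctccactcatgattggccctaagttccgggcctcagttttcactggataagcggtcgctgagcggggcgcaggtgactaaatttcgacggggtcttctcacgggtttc
ULBP1: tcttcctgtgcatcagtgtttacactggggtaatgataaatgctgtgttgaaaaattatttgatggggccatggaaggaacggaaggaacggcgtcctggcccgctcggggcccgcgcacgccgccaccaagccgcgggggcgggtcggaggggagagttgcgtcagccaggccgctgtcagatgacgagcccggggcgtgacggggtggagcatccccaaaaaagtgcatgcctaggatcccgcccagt

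The heat shock core ended 128 bases before the start in MICA and 132 bases before it in MICB. It was found in no promoter of the other 6 ligands, on either strand, while 5.78% of all 35116 promoters of the same length in that table held it. The ULBP1 promoter held 2 matches to the GC box GGGCGG, at 112 to 107 and at 9 to 4 bases before the start. That motif was present in 42.64% of all promoters, and was also found in MICA, MICB, ULBP2, ULBP3 and RAET1G. The CCAAT box (CCAAT) occurred in ULBP2, MICA, MICB, RAET1E and RAET1G and in 32.01% of all promoters. The ATF4 element TGATGNAA (3.14% of all promoters), the cAMP response element TGACGTCA (1.65%) and the p53 recognition decamer (5.57%) matched none of the ligand promoters. The motifs were searched on both strands, and none of them contains another. These are matches of letters in a window, not measured binding sites.

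The libraries held 20.3 M to 27.7 M reads (M, 1000000 reads). Levels are given in CPM (reads per 1000000 of the normalised library total). The leukocyte gene PTPRC had 55 to 99 reads in 8 libraries and 0 or 1 in the other 8. The libraries with PTPRC reads were replicate 1 of Null DMSO and of Y220C DMSO, and replicates 2, 3 and 4 of Null MS78 and of Y220C MS78. The 15 NK and T cell markers summed to 63.2 to 151 CPM in the former and to 2.36 to 10.3 CPM in the latter, where CD2 and CD3E were at 0. The 8 B cell and myeloid markers reached 64.7 to 101 and 59.5 to 96.1 CPM in these sets (MS4A1 was at 0 in the second), and the 6 fibroblast markers 48.5 to 77.7 and 49.3 to 82.0 CPM. In the group means CD68 alone was at 62.2 to 94.2 CPM and FBLN1 at 45.6 to 75.1 CPM. These sums thus rest mainly on single genes and do not show those cell types. The 8 carcinoma line markers summed to 4140 to 5960 and 4670 to 6130 CPM, with the alveolar gene SFTPC at 1 read in a Null MS78 library and at 0 in the others. Their members differed widely, with KRT18 at 288 to 491 CPM and EPCAM, CDH1 and KRT19 at 1.55 CPM or less in the group means. KRT8 was at 173 to 330 CPM, so most of each sum lay in the remaining members, VIM and NAPSA. These sums thus also rest on few genes. They were lowest in Y220C MS78, at 4140 to 4670 CPM, beside 5860 to 6100 CPM in Y220C DMSO. Of 13 mitochondrially encoded genes, 3 fell under MS78 in p53-null cells, where 28.1% of all genes were called, and 6 rose and 1 fell in p53-Y220C cells, where 48.5% were. Since PTPRC reads are unevenly spread over treatments, the responses to MS78 are also given within the libraries with and without them. In each line a set holds 3 libraries of a treatment and 1 of the other, and between the lines it compares 3 with 3 or 1 with 1. Any call within a set therefore assumes that a lone library varies like the other groups. In bulk RNA, fewer cells of a type and less RNA per cell cannot be told apart.

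Levels can be compared between genes only per length, as TPM (the authors' length-scaled unit, which sums to 1000000 in a library). MICA was the most abundant ligand in every group, at 64.5 ± 1.71 TPM in Null DMSO, 120 ± 7.69 in Null MS78, 58.6 ± 2.55 in Y220C DMSO and 156 ± 7.25 in Y220C MS78 (SD, n = 4). MICB came next at 42.2 ± 1.83, 51.7 ± 2.15, 37.6 ± 2.11 and 74.5 ± 2.35 TPM, and its libraries never overlapped those of MICA. Together MICA and MICB held most of the ligand transcripts, and the 5 other detected genes stayed near or below 10 TPM. Their order differed between groups. In Null DMSO it ran ULBP3 (7.47 TPM), ULBP1 (4.71), ULBP2 (1.88), RAET1G (1.8) and RAET1E (0.759), with only ULBP2 and RAET1G overlapping as neighbours. In Null MS78 ULBP3 (7.19 TPM) stood above ULBP2 (2.61), RAET1G (2.01) and ULBP1 (1.8), which overlapped their neighbours, and RAET1E (0.943) was lowest. In Y220C DMSO ULBP1 (10.3 TPM) and ULBP3 (8.88) overlapped, as did ULBP2 (2.93) with RAET1E (2.15) and RAET1E with RAET1G (1.88). In Y220C MS78 ULBP3 (9.62 TPM) and ULBP1 (8.84) overlapped, and ULBP2 (7.2), RAET1G (3.07) and RAET1E (1.79) followed without overlap. RAET1L had 0 reads in all 16 libraries, which at these depths allows up to 0.108 to 0.156 CPM, a limit that covers counting error only.

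**Figure D1:**
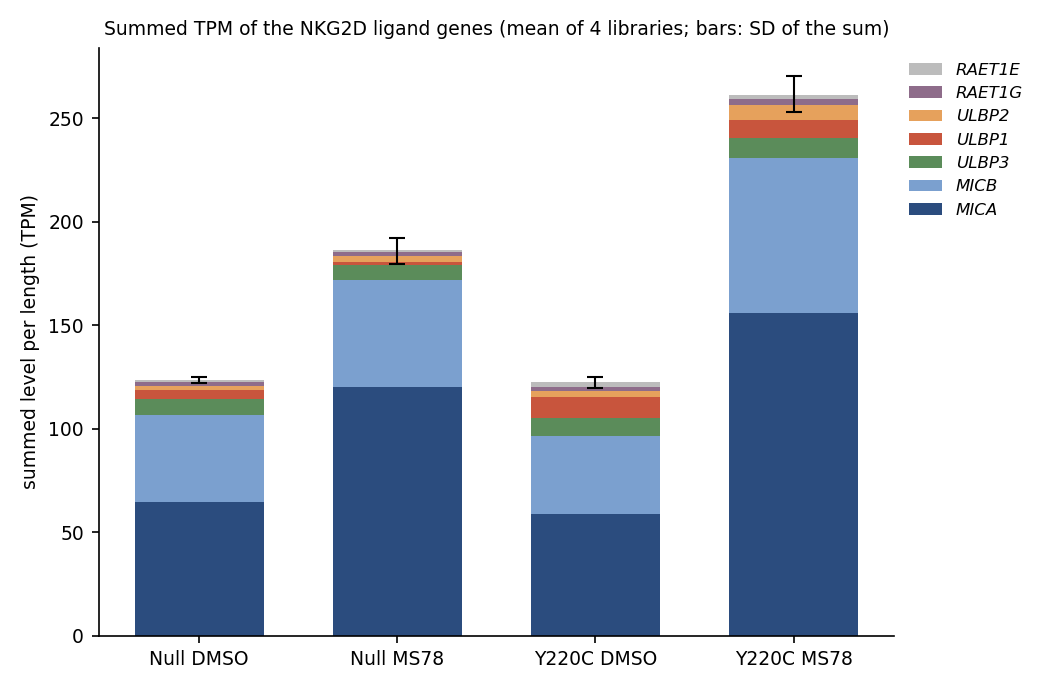
Stacked bars of the mean TPM of the 7 ligand genes with reads (vertical axis, from 0) in the 4 groups of 4 libraries, with error bars for the SD of the summed TPM. MICA and MICB fill most of every bar, the DMSO bars are of like height (123 and 122 TPM), and Y220C MS78 is the tallest at 261 TPM.

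The summed TPM of the 8 ligands was 123 ± 1.43 in Null DMSO and 186 ± 6.15 in Null MS78, and 122 ± 2.55 in Y220C DMSO and 261 ± 8.87 in Y220C MS78 (SD, n = 4). The sums of the DMSO groups were within 1 SD of each other, while the shares of single genes in them differed. MICA held 52.3% of the sum in Null DMSO and 47.9% in Y220C DMSO, and 64.3% and 59.8% under MS78. ULBP1 held 3.82% in Null DMSO and 0.967% in Null MS78, against 8.39% in Y220C DMSO and 3.38% in Y220C MS78.

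MICA and MICB, the MHC-encoded ligands, were higher under MS78 in both lines, and more so in p53-Y220C cells. In p53-null cells MICA stood at 55.9, 55.9, 57.4 and 53.3 CPM in the DMSO libraries and at 96.3, 101, 108 and 111 CPM in the MS78 libraries. In p53-Y220C cells it stood at 53.7, 54.9, 51.2 and 48.6 CPM under DMSO and at 145, 135, 141 and 143 CPM under MS78. The DMSO libraries of the lines overlapped, every MS78 library lay above every DMSO library, and the p53-Y220C libraries were the highest. The log2 fold change of MICA was 0.90 (SE 0.05, 1.87-fold) in p53-null cells and 1.44 (SE 0.05, 2.71-fold) in p53-Y220C cells, a difference of 0.53 (SE 0.07). Within the libraries with PTPRC reads these changes were 0.92 and 1.38, and within those without them 0.79 and 1.5.

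MICB was at 66.5, 71.6, 69.5 and 73.9 CPM in the Null DMSO libraries and at 93.6, 84.3, 89.1 and 86.8 CPM in the Null MS78 libraries. It was at 62.5, 63.1, 66.5 and 68.7 CPM in Y220C DMSO and at 138, 137, 130 and 131 CPM in Y220C MS78. As for MICA, no MS78 library overlapped a DMSO library of its line. The log2 fold change was 0.33 (SE 0.04, 1.26-fold) in p53-null cells and 1.04 (SE 0.04, 2.05-fold) in p53-Y220C cells, a difference of 0.71 (SE 0.06). Within the libraries with PTPRC reads it was 0.37 and 1.09, and without them 0.38 and 1.06. MICA and MICB are polymorphic, and how reads of alleles unlike the reference were assigned is not given in the sources used here.

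**Figure D2:**
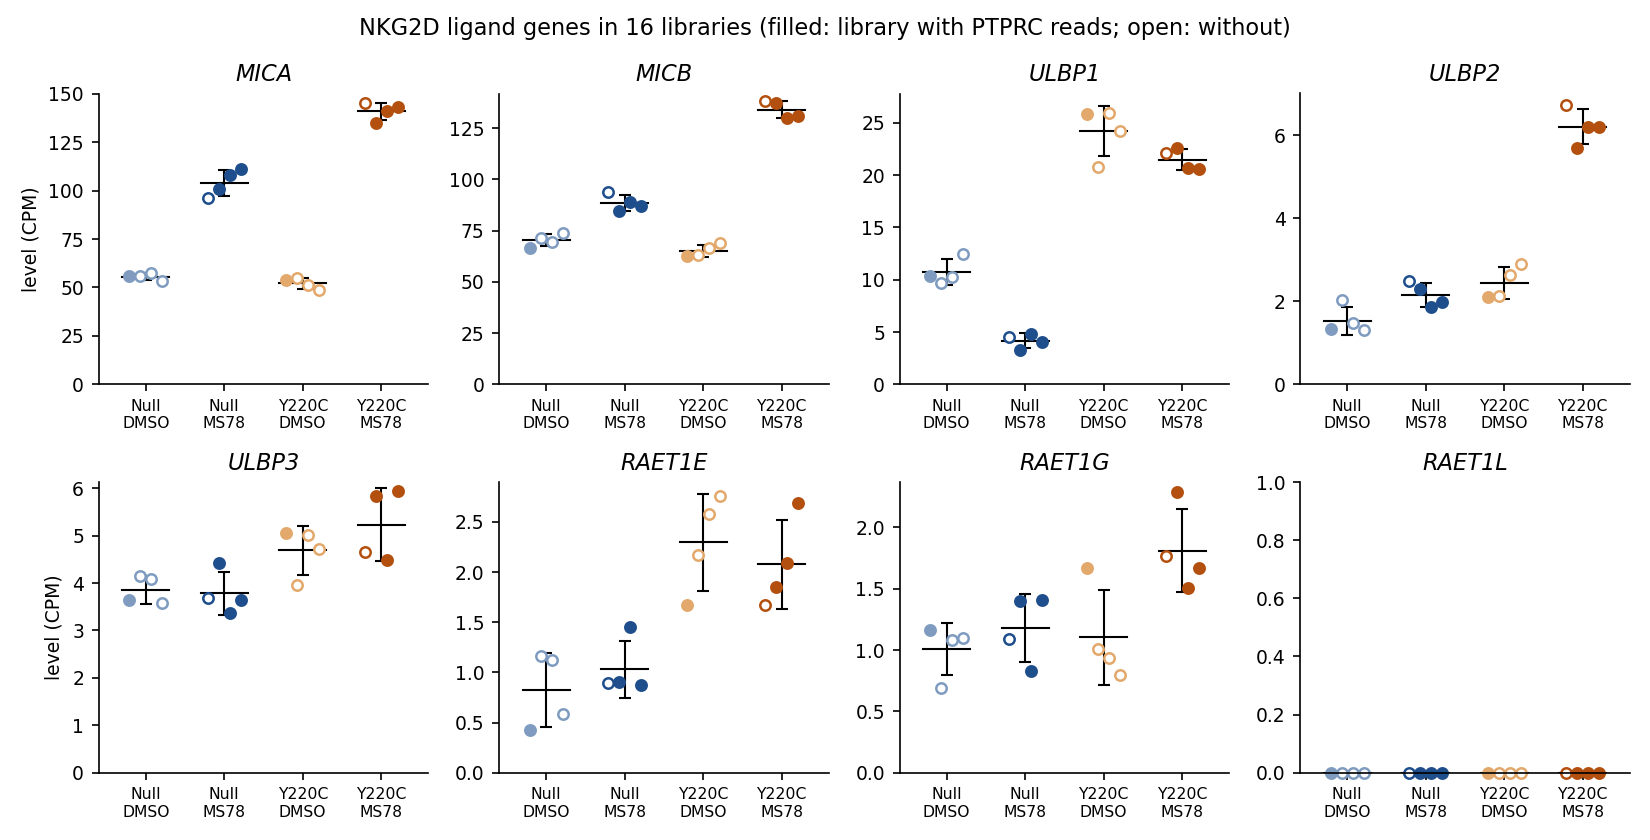
CPM of each ligand gene (vertical axes from 0, which differ between panels) in each library of the 4 groups, with filled points for libraries with PTPRC reads, and lines and bars for the mean ± SD of 4 libraries. MICA and MICB lie higher under MS78 in both lines without overlap, ULBP1 is lowest in Null MS78, and RAET1L is at 0 throughout.

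The increase of MICB was uneven over its transcripts. The transcript MICB-201, whose annotated start lies 30 bases upstream of the RefSeq start, was at 29.5, 30.4, 30.1 and 33.3 CPM in Null DMSO and at 46.1, 42.8, 42.8 and 44.0 CPM in Null MS78. In p53-Y220C cells it was at 23.2, 29.9, 23.4 and 31.5 CPM under DMSO and at 80.7, 82.4, 74.6 and 78.8 CPM under MS78. The ratio of the MS78 mean to the DMSO mean was 1.42 in p53-null cells and 2.93 in p53-Y220C cells. MICB-204, which starts 3264 bases upstream, had ratios of 1.18 and 1.29, from 30.9 ± 2.72 to 36.4 ± 1.61 CPM in p53-null cells and from 32.3 ± 3.58 to 41.7 ± 3.71 CPM in p53-Y220C cells (SD, n = 4). MICB-201 thus held 41.4% of the reads of MICB in Y220C DMSO and 59.2% in Y220C MS78, and MICB-204 fell from 49.5% to 31.2%. In p53-null cells MICB-201 went from 43.8% to 49.7% and MICB-204 from 43.8% to 41.1%.

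For MICA, the transcript MICA-209, which starts 16 bases upstream of the RefSeq start, held 94.0% to 96.6% of the reads in the group means. Its ratio of MS78 to DMSO was 1.92 in p53-null cells and 2.77 in p53-Y220C cells. MICA-210, which starts 3811 bases upstream, was at 3.11 and 2.91 CPM in the DMSO groups and had ratios of 1.06 and 1.45. MICB-202, which starts 59 bases upstream of the RefSeq start, had a ratio of 0.929 in p53-null cells and of 2.17 in p53-Y220C cells, below that of MICB-204 in the former and above it in the latter. MICA-208 and MICB-203, which start downstream of the RefSeq start, stayed below 1 CPM in every group mean. Their ratios in p53-Y220C cells, 9.64 and 1.91, rest on few reads. The reads of overlapping transcripts were divided by the quantifier, so these shares are estimates and carry no test.

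**Figure D3:**
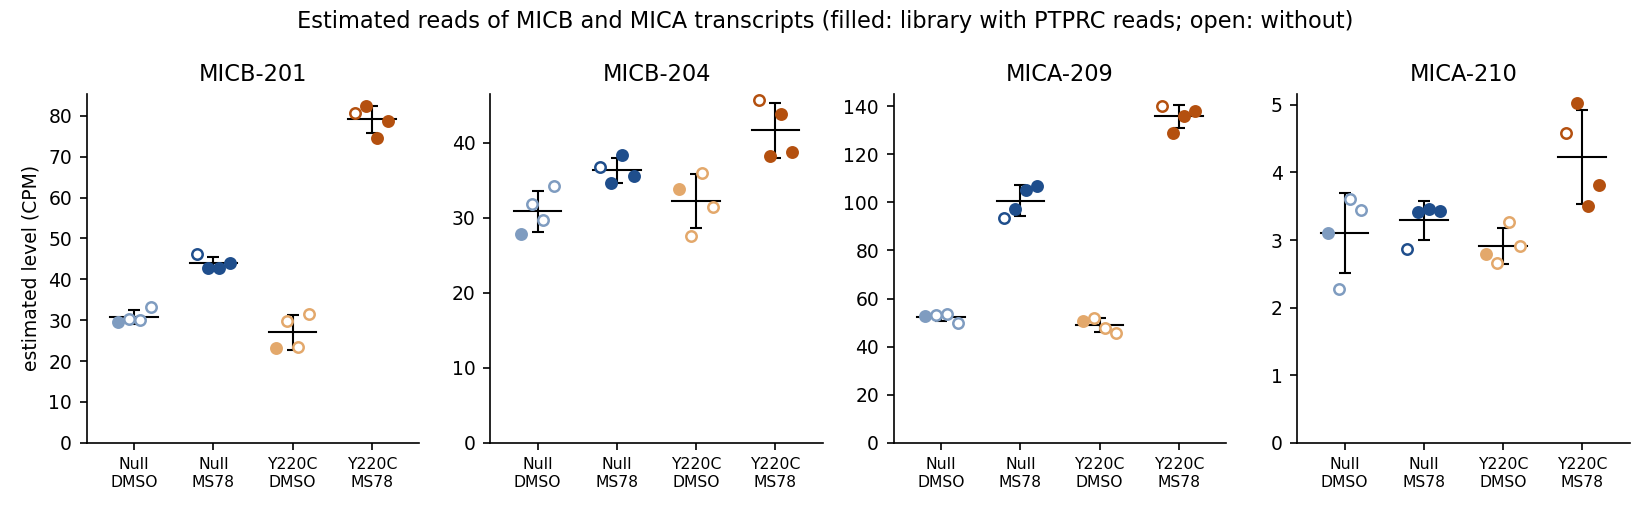
Estimated CPM of 2 MICB and 2 MICA transcripts (vertical axes from 0, which differ between panels) in each library, filled for libraries with PTPRC reads, with the mean ± SD of 4 libraries. MICB-201 and MICA-209 separate the MS78 groups from the DMSO groups, and the far upstream MICB-204 and MICA-210 do so less.

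ULBP1 showed a different pattern from MICA and MICB. Its libraries were at 10.4, 9.7, 10.3 and 12.5 CPM in Null DMSO and at 4.55, 3.31, 4.85 and 4.02 CPM in Null MS78. In p53-Y220C cells they were at 25.9, 20.8, 26.0 and 24.2 CPM under DMSO and at 22.1, 22.6, 20.7 and 20.6 CPM under MS78. The Null MS78 libraries were the lowest of all 16 and the p53-Y220C libraries the highest, and only the p53-Y220C groups overlapped each other. The log2 fold change under MS78 was -1.36 (SE 0.11, 2.57-fold lower) in p53-null cells and -0.17 (SE 0.09) in p53-Y220C cells, where its 95% interval ran from -0.36 to 0.02 and it was not called. The responses differed by 1.19 (SE 0.14). Within libraries with PTPRC reads the changes were -1.37 and -0.28, and without them -1.26 and -0.09. Without replicate 2 of Y220C DMSO, the lowest library of its group, the change in p53-Y220C cells was -0.24 and was called.

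ULBP2 was at 1.33, 2.03, 1.47 and 1.3 CPM in Null DMSO and at 2.49, 2.3, 1.86 and 1.99 CPM in Null MS78. It was at 2.1, 2.12, 2.63 and 2.89 CPM in Y220C DMSO and at 6.73, 5.7, 6.21 and 6.19 CPM in Y220C MS78. The p53-null groups overlapped, and Y220C MS78 lay above all other libraries. The log2 fold change under MS78 was 1.35 (SE 0.15, 2.54-fold) in p53-Y220C cells and 0.50 (SE 0.17, 1.42-fold) in p53-null cells, a difference of 0.84 (SE 0.23). The call in p53-null cells was lost in 9 of 26 refits under other settings, among them those without replicate 1, 3 or 4 of Null DMSO or replicate 1 or 2 of Null MS78, with log2 fold changes of 0.4 to 0.66 over the refits. Within the libraries with and without PTPRC reads the changes were 0.62 and 0.64 in p53-null cells and 1.53 and 1.40 in p53-Y220C cells. The difference between the lines was then 0.91 and 0.76, called in neither set, where each response rests on a lone library of a treatment.

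ULBP2 rests on 31 to 137 reads per library and shares 41.7% of the 31-base windows of its transcripts with RAET1L and 17.59% with RAET1G, so its split from these copies is uncertain. Summed with RAET1G and RAET1L as 1 gene, it changed by 0.40 in p53-null cells and by 1.18 in p53-Y220C cells, a difference of 0.77, and all 3 values were called.

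The remaining 3 detected ligands had few reads. ULBP3 had 75 to 123 reads in every library, or 3.36 to 5.94 CPM, and its groups overlapped within each line. Its log2 fold change under MS78 was -0.03 (95% interval -0.3 to 0.25) in p53-null cells and 0.16 (-0.11 to 0.43) in p53-Y220C cells. RAET1E had 10 to 62 reads, and its change was 0.32 (-0.34 to 0.98) and -0.15 (-0.73 to 0.43). In libraries with and without PTPRC reads ULBP3 changed by 0.06 and -0.09 in p53-null cells and by 0.11 and 0.03 in p53-Y220C cells. RAET1E changed by 1.3 and -0.09, and by 0.41 and -0.58, so its sign differed between the sets in both lines. The 95% intervals reach changes well beyond those measured, so the data do not show that either gene stayed level. RAET1E shares 34.95% of its exon bases with AL355312.5 on the same strand, and whether the counting used strand is not given in the sources used here. RAET1G had 16 to 47 reads. It was at 1.67, 1.01, 0.939 and 0.8 CPM in Y220C DMSO and at 1.77, 2.29, 1.51 and 1.67 CPM in Y220C MS78, groups that overlapped. Its change of 0.71 (SE 0.26, 1.63-fold) was called, and that call was lost in 8 of 25 refits, including those without replicate 2, 3 or 4 of Y220C DMSO or replicate 2 of Y220C MS78. Within libraries with PTPRC reads it was 0.14 and without them 0.95, called in neither set. In p53-null cells RAET1G changed by 0.23 (-0.35 to 0.81), and by 0.05 and 0.18 within the sets.

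Over the family, 4 of 7 tested ligands were called under MS78 in p53-null cells, with MICA, MICB and ULBP2 higher and ULBP1 lower, where 28.1% of all 15687 tested genes were called, 14.8% higher and 13.3% lower. In p53-Y220C cells 4 of 7 were called, all higher (MICA, MICB, ULBP2 and RAET1G), where 48.5% of all genes were called, 24.9% higher and 23.6% lower. The groups did not overlap for 3 of 7 ligands in either line, against 29.3% of all genes in p53-null cells and 41.3% in p53-Y220C cells. The difference of the responses was called for ULBP1, ULBP2, MICA and MICB, all toward p53-Y220C, where 26.8% of all genes were called, 14.4% higher and 12.4% lower. The median log2 fold change of the 7 ligands was 0.32, 0.71 and 0.53 in these comparisons, and that of all genes tested 0.009, -0.012 and -0.02. Nothing is read from these shares, because the family was proposed with the values known. The DMSO and MS78 groups are shared between the response of a line, the difference of responses and the comparison of the lines.

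**Figure D4:**
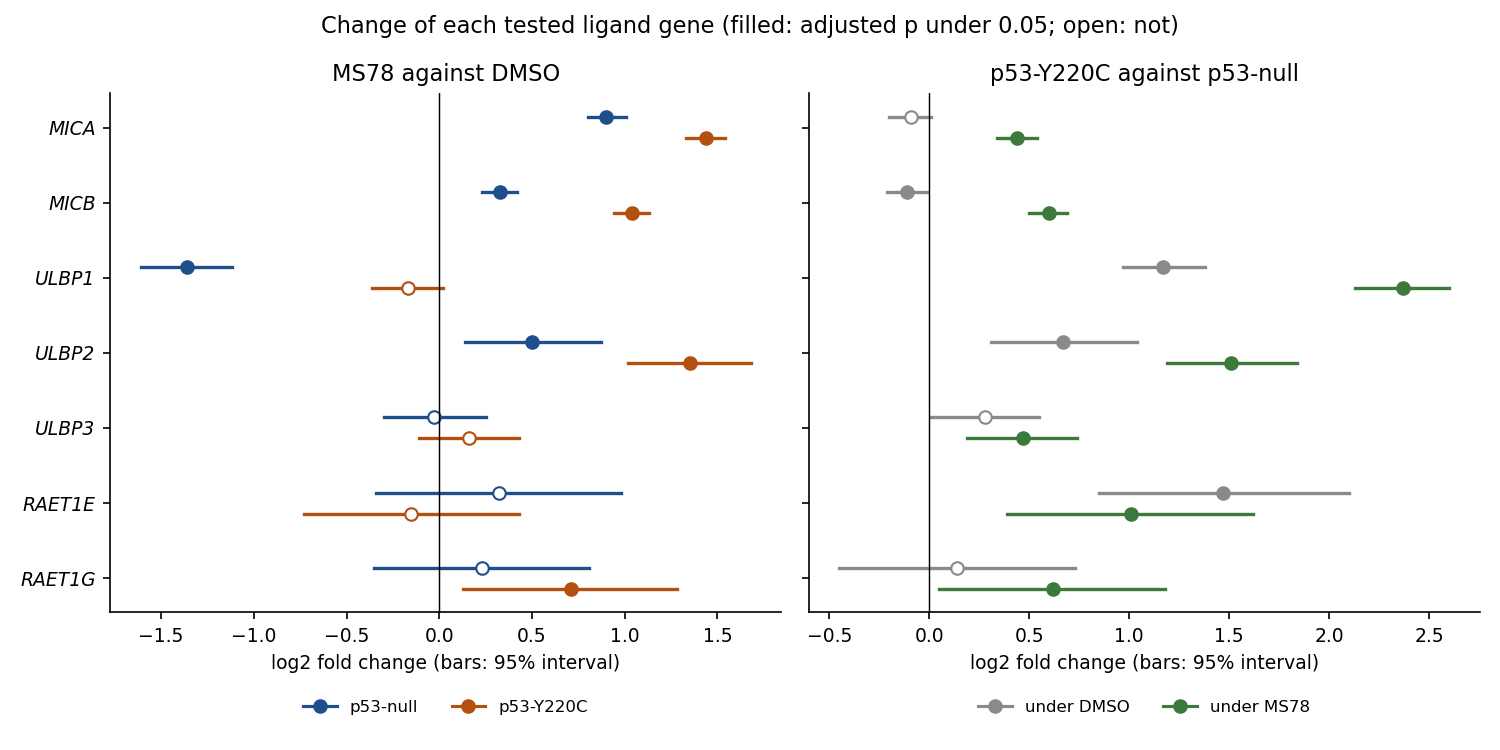
Log2 fold change of the 7 tested ligand genes (horizontal axis) with bars for the 95% interval, on the left for MS78 against DMSO in each line and on the right for p53-Y220C against p53-null cells under each treatment, filled at an adjusted p under 0.05. MICA and MICB lie right of 0 under MS78 in both lines, and all 7 genes lie right of 0 for p53-Y220C against p53-null cells under MS78.

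The lines were also compared directly under each treatment. Under DMSO, ULBP1 was higher in p53-Y220C cells by 1.17 on the log2 scale (SE 0.09, 2.25-fold), ULBP2 by 0.67 (SE 0.17, 1.59-fold) and RAET1E by 1.47 (SE 0.29, 2.78-fold), and none of the 3 overlapped between lines. RAET1E was at 0.429, 1.16, 1.12 and 0.589 CPM in Null DMSO and at 1.67, 2.17, 2.58 and 2.76 CPM in Y220C DMSO. MICB was lower by a log2 fold change of -0.11 (SE 0.04), with overlap, and this call was lost in 14 of 26 refits. MICA changed by -0.09 (95% interval -0.2 to 0.01), ULBP3 by 0.28 (0.01 to 0.55) and RAET1G by 0.14 (-0.45 to 0.73), with no call. ULBP3 was called without replicate 2 of Y220C DMSO, at 0.35. In all, 4 of 7 ligands were called here, 3 of them higher, where 50.2% of all genes were called, 24.7% higher and 25.5% lower. The 3 of 7 ligands that did not overlap stand beside 43.6% of all genes. Within the libraries without PTPRC reads, 3 of each line, the differences were 1.13 for ULBP1, 0.68 for ULBP2 and 1.39 for RAET1E.

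Under MS78 all 7 tested ligands were called higher in p53-Y220C than in p53-null cells and none overlapped, where 61.8% of all genes were called, 30.7% higher and 31.2% lower, and 56.4% did not overlap. The log2 difference was 2.37 (SE 0.11, 5.15-fold) for ULBP1, the most different of the family, followed by 1.51 (SE 0.15, 2.86-fold) for ULBP2 and 1.01 (SE 0.28, 2.01-fold) for RAET1E. It was 0.62 (SE 0.26, 1.53-fold) for RAET1G, 0.60 (SE 0.04, 1.51-fold) for MICB, 0.47 (SE 0.13, 1.38-fold) for ULBP3 and 0.44 (SE 0.05, 1.36-fold) for MICA. Same-numbered libraries of the MS78 groups deviated together, and with the replicate number as a block RAET1G, still at 0.62, was not called, leaving 6 of 7. Over all settings, the call of RAET1G was lost in 13 of 25 refits, at 0.48 to 0.71. Within the libraries with PTPRC reads, 3 of each line, the differences were 2.41 for ULBP1, 1.55 for ULBP2, 1.04 for RAET1E, 0.6 for RAET1G, 0.62 for MICB, 0.51 for ULBP3 and 0.4 for MICA. The median over the 7 ligands was 0.28 under DMSO and 0.62 under MS78, against 0.003 and -0.01 over all genes.

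Among regulators known for these genes, ATF4, the transcription factor of the amino acid and unfolded protein stress responses, fell from 420 to 336 CPM under MS78 in p53-null cells, a log2 fold change of -0.32 (SE 0.04, edgeR quasi-likelihood adjusted p = 6.74e-07). In p53-Y220C cells it rose from 388 to 444 CPM, by 0.19 (SE 0.04, edgeR adjusted p = 0.00017). The difference was 0.51 (SE 0.05, edgeR adjusted p = 3.15e-07), in the same direction as that of ULBP1. Other comparisons did not run alike. Under DMSO ATF4 was lower in p53-Y220C than in p53-null cells (388 against 420 CPM), while ULBP1 was 2.25-fold higher. In p53-Y220C cells ULBP1 was at -0.17 under MS78, with no call, while ATF4 rose. Within libraries with PTPRC reads the rise in p53-Y220C cells was 0.14 and was not called. RBM4, a splicing factor known to support ULBP1 splicing, was at 116 and 114 CPM in p53-null cells and at 111 and 128 CPM in p53-Y220C cells.

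Of 24 listed ATF4 targets, 20 fell and 1 rose under MS78 in p53-null cells (13.3% and 14.8% of all genes), with a median log2 fold change of -0.73. Asparagine synthetase ASNS went from 814 to 372 CPM (-1.13, SE 0.05, edgeR adjusted p = 5.18e-13), and the cystine transporter SLC7A11 from 113 to 51.2 CPM (-1.14, SE 0.07, edgeR adjusted p = 3.5e-11). CHAC1, which degrades glutathione, fell by 1.08 and STC2, a secreted stress glycoprotein, by 1.05 on the log2 scale, while the factor ATF5 rose by 0.58. In p53-Y220C cells 12 targets fell and 7 rose (23.6% and 24.9% of all genes), with a median of -0.09. ATF3, a stress factor, rose from 9.13 to 44.9 CPM (2.29, SE 0.09, edgeR adjusted p = 1.12e-14) and DDIT3, which encodes CHOP, from 75.8 to 161 CPM (1.09, SE 0.07, edgeR adjusted p = 1.88e-11). The mTORC1 inhibitor DDIT4 fell by 0.87 and the amino acid transporter SLC7A5 by 0.66. The response was more positive in p53-Y220C cells for 20 of the 24 and more negative for 2 (14.4% and 12.4% of all genes). Under DMSO 14 targets were higher and 6 lower in p53-Y220C cells (24.7% and 25.5% of all genes). Under MS78 20 were higher and 2 lower (30.7% and 31.2%). Within the libraries with and without PTPRC reads, the median of the targets was -0.76 and -0.65 in p53-null cells. It was -0.11 and -0.07 in p53-Y220C cells, and 0.6 and 0.46 for the difference. The part of ATF4 in the ULBP1 values was not tested.

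HSF1, the factor that drives heat shock genes, was at 178 and 194 CPM in p53-null cells under DMSO and MS78 (0.12, edgeR adjusted p = 0.0261), a call that was lost in 10 refits. It was at 167 and 173 CPM in p53-Y220C cells (0.05, edgeR adjusted p = 0.335). All 17 listed heat shock genes other than CRYAB rose under MS78 in p53-Y220C cells, as did 24.9% of all genes. Their median log2 fold change was 0.94. The inducible HSP70 gene HSPA1A went from 362 to 4260 CPM (3.56, SE 0.04, edgeR adjusted p = 2.03e-23), and HSPA6 from 4.64 to 479 CPM (6.69, SE 0.07, edgeR adjusted p = 1.03e-23). The co-chaperones DNAJB1 and BAG3 rose by 2.20 and 2.08. CRYAB, also on the list, had 0 or 1 reads in every Y220C DMSO and p53-null library and 24 to 33 in Y220C MS78. It passed the filter on low counts only through that group, so its call is not a result. Counts and medians over all 18 genes include it. HSPA1A, HSPA1B and HSPA6 have near-identical copies, so their split is uncertain.

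In p53-null cells 7 of the 18 heat shock genes rose and 1 fell, beside 14.8% and 13.3% of all genes. HSPA1A went from 298 to 391 CPM there and HSPB1 from 631 to 898 CPM (0.51, SE 0.05, edgeR adjusted p = 2.32e-08). Without CRYAB, which is nearly absent there, the median was 0.01 in p53-null cells and 0.94 in p53-Y220C cells. The response was more positive in p53-Y220C cells for 17 of 18 genes, CRYAB counted, and for 14.4% of all genes. Each set of libraries, with or without PTPRC reads, has a lone library of a treatment. The median over all 18 genes was 1.01 with PTPRC reads and 1.09 without them in p53-Y220C cells. In p53-null cells it was -0.01 and 0.03. On the log2 scale MICA changed by 0.90 under MS78 in p53-null cells, beside a heat shock median of 0.01 without CRYAB. It changed by 1.44 in p53-Y220C cells, beside a median of 0.94. MICB changed by 0.33 in p53-null cells and by 1.04 in p53-Y220C cells, beside the same medians. The part of HSF1 in the MICA and MICB values was not tested.

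**Figure D5:**
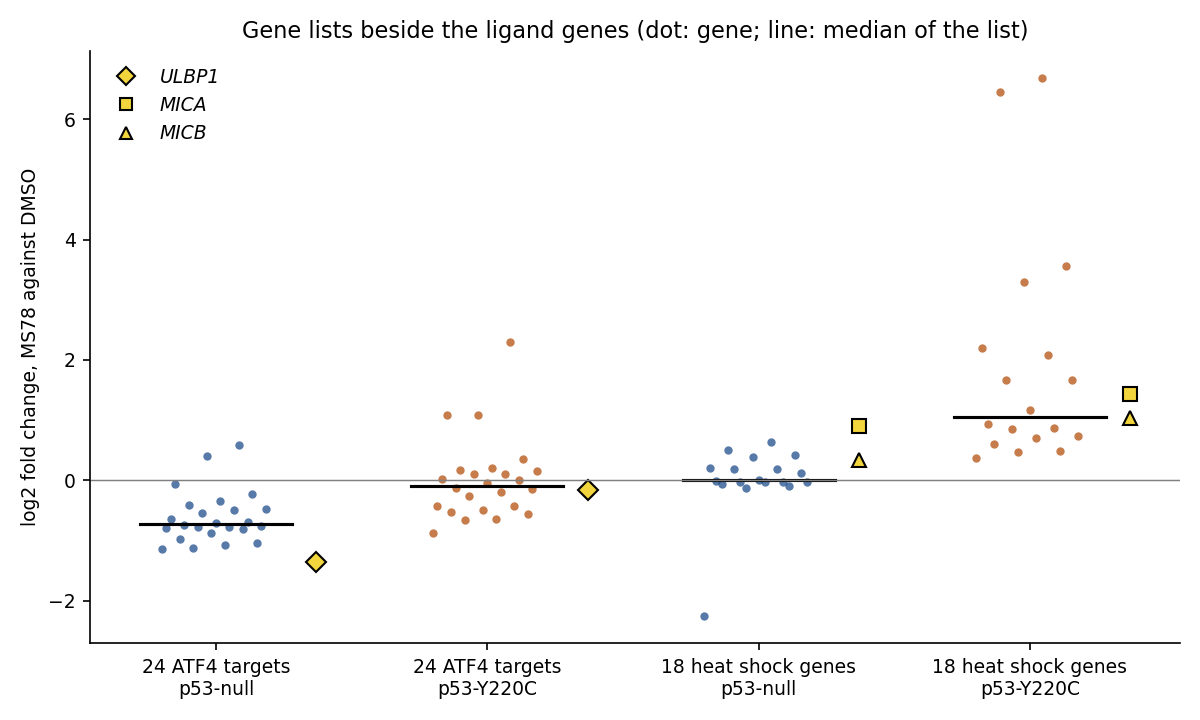
Log2 fold change under MS78 (vertical axis) of the 24 ATF4 targets beside ULBP1 and of the 18 heat shock genes beside MICA and MICB in each line, each dot 1 gene and each black line the median of the list. ULBP1 lies below most ATF4 targets in p53-null cells, and the heat shock dot below -2 in p53-null cells is CRYAB, which has 0 or 1 reads in those libraries.

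Of the 20 known regulators, 3 rose and 7 fell under MS78 in p53-null cells, where 28.1% of all genes were called, and 7 rose and 6 fell in p53-Y220C cells, where 48.5% were. The cell cycle factors E2F2 and E2F1 fell in both lines, from 26.3 to 13.3 CPM and from 36.0 to 21.7 CPM in p53-null cells and from 15.7 to 4.44 CPM and from 19.7 to 8.34 CPM in p53-Y220C cells. MYC, a transcription factor that promotes growth, fell from 98.5 to 82.6 CPM in p53-null cells and rose from 86.1 to 150 CPM in p53-Y220C cells (0.80, SE 0.05, edgeR adjusted p = 5.37e-11). The DNA damage kinases CHEK1 and CHEK2 fell in both lines, by 0.38 and 0.46 in p53-null cells and by 0.44 and 0.52 in p53-Y220C cells. EP300, which encodes p300, rose by 0.30 in both. Between the lines, 4 of the 20 were higher and 8 lower in p53-Y220C cells under DMSO, and 8 and 7 under MS78, where 50.2% and 61.8% of all genes were called. In the sets with and without PTPRC reads, none was called higher in p53-null cells, where 6 and 5 were called lower, and 7 and 3 were higher and 5 lower in either set in p53-Y220C cells.

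Of 7 genes for the release of ligands from the cell surface, 4 rose and none fell under MS78 in p53-null cells, where 14.8% of all genes rose. These were MMP14 (119 to 145 CPM), ADAM10 (168 to 205 CPM), ADAM9 and PDIA6, an isomerase needed for MICA shedding. In p53-Y220C cells 4 rose, namely PDIA6 (341 to 455 CPM, 0.42, SE 0.04, edgeR adjusted p = 1.08e-07), ADAM17 (81.9 to 101 CPM), ADAM10 and ADAM9, and MMP2 fell from 2.26 to 1.38 CPM. Of all genes, 24.9% rose and 23.6% fell there. The response differed for 3 of the 7 and for 26.8% of all genes, with PDIA6 and ADAM17 more positive and MMP14 more negative in p53-Y220C cells. Between the lines 6 of the 7 were lower in p53-Y220C cells under either treatment, beside 25.5% of all genes under DMSO and 31.2% under MS78. MMP14 was at 77.3 CPM in p53-Y220C against 119 CPM in p53-null cells under DMSO (-0.62, SE 0.05, edgeR adjusted p = 9.43e-10). In these sets of libraries, with and without PTPRC reads, the median log2 fold change of the 7 was 0.13 and 0.08 in p53-null cells. It was 0.16 and 0.14 in p53-Y220C cells, and -0.03 and -0.02 for the difference of the responses. The surface proteins themselves were not measured.

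Of 10 listed ligands for other activating NK cell receptors or adhesion, 9 were tested. In p53-null cells 5 rose and 1 fell under MS78, and in p53-Y220C cells 5 rose and none fell, where 14.8% and 24.9% of all genes rose. The libraries with and without PTPRC reads had 10 and 8 of them tested. Their median log2 fold change was 0.3 and 0.12 in p53-null cells and 0.97 and 0.37 in p53-Y220C cells. PVR, a ligand of the receptor DNAM-1, fell from 58.7 to 53.5 CPM in p53-null cells and rose from 73.1 to 116 CPM in p53-Y220C cells (0.66, SE 0.04, edgeR adjusted p = 2.45e-11). NCR3LG1, a ligand of NKp30, rose from 7.6 to 10.0 CPM and from 8.93 to 18.9 CPM, and the adhesion molecule ICAM1 from 97.1 to 142 CPM and from 66.5 to 122 CPM. These 3 genes were those whose responses differed between lines, each toward p53-Y220C, beside 26.8% of all genes that differed. SLAMF7 and CD48, which leukocytes express, are on this list. SLAMF7 went from 0.0536 to 0.73 CPM and CD48 from 0.172 to 0.951 CPM in p53-null cells. In that line CD48 ran from 0 to 0.686 CPM over the DMSO libraries and from 0 to 1.37 CPM over the others. Once PTPRC reads were in the model, 4 of the 9 tested genes rose in p53-Y220C cells. The median log2 fold change of the 9 then went from 0.88 to 0.66. In p53-null cells 5 still rose and 1 fell, and the median went from 0.4 to 0.44. The part of PTPRC reads in SLAMF7 and CD48 alone was not tested. Between the lines, 2 of the 9 were higher and 3 lower in p53-Y220C cells under DMSO in the main fit. Under MS78 3 were higher and 3 lower. Of all genes, 50.2% and 61.8% were called under these treatments.

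Of 10 listed ligands of inhibitory NK cell receptors, 8 were tested. Under MS78 2 rose and 1 fell in p53-null cells, and 6 rose and 1 fell in p53-Y220C cells, where 28.1% and 48.5% of all genes were called. In p53-Y220C cells 4 were called higher once PTPRC reads were in the model. Within the libraries with and without PTPRC reads, where 9 genes were tested, the median there was 0.22 and 0.15. HLA-E, which binds NKG2A, rose from 157 to 190 CPM and from 135 to 170 CPM, by 0.27 and 0.33 on the log2 scale. HLA-C rose by 0.16 and 0.29. HLA-F rose from 0.824 to 1.68 CPM in p53-Y220C cells, on 14 to 26 reads per library under DMSO and 26 to 42 under MS78. In the main fit it was the only gene of the 8 whose response differed between lines (0.97, SE 0.28, edgeR adjusted p = 0.0132). Of all genes, 26.8% differed in this way. With PTPRC reads in the model, the response was more positive in p53-Y220C cells for 2 of the 8 and more negative for 1. Under either treatment 6 of the 8 were lower in p53-Y220C than in p53-null cells, beside 25.5% of all genes under DMSO and 31.2% under MS78. HLA-F was at 0.824 CPM in p53-Y220C against 4.12 CPM in p53-null cells under DMSO. The class I genes are polymorphic, so their levels carry the same limit as MICA and MICB.

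The receptor gene KLRK1 had 0 to 26 reads per library and the adaptor gene HCST 8 to 33. Neither passed the test in any of the 5 comparisons with all libraries and the filter on low counts, nor did the third listed gene, the adaptor TYROBP. In 5 other settings HCST was called higher in p53-Y220C cells under DMSO, for example by 0.94 without replicate 2 of Y220C DMSO (edgeR adjusted p = 0.0303). The log2 fold change of KLRK1 under MS78 was 1.96 (SE 1.06, edgeR adjusted p = 0.189) in p53-null cells and 1.47 (SE 0.97, edgeR adjusted p = 0.225) in p53-Y220C cells. With no filter on low counts KLRK1 was called in p53-null cells (edgeR adjusted p = 0.0368). Of the 15 NK and T cell markers, KLRK1 among them, 2 rose under MS78 in the p53-null line and 3 in the p53-Y220C line (14.8% and 24.9% of all genes). Their median log2 fold changes were 1.96 and 2.16. Each group mixes libraries with and without PTPRC reads, so few calls do not show little change. Some markers, such as GZMB and GNLY, had at most 2 reads in libraries without PTPRC reads and passed the filter through the others. With a term for PTPRC reads in the model, none of the 7 tested ligands was called for that term. The log2 coefficients were -0.01 (SE 0.08) for ULBP1, -0.23 (SE 0.12) for ULBP2, 0.08 (SE 0.1) for ULBP3 and 0.04 (SE 0.04) for MICA. They were -0.09 (SE 0.03) for MICB, -0.19 (SE 0.24) for RAET1E and 0.34 (SE 0.2) for RAET1G. The term overlaps with treatment, so the lack of a call does not show that these reads leave the ligands unchanged.

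Over the 16 libraries, log2 CPM of MICA and MICB correlated with a Pearson r of 0.937, ULBP2 and MICB with 0.852 and ULBP2 and MICA with 0.73. ULBP1 correlated with MICA at -0.175 and with MICB at 0.083. These libraries fall into 4 groups and share their scaling, so the values are descriptions and carry no p. The protein-coding genes outside the family that were most like each ligand were sought among 10601 genes with at least 5 CPM. For ULBP1 they were HSPA9, the mitochondrial HSP70 (0.99), XPOT, which exports tRNA from the nucleus (0.985), and CTNNAL1 (0.984). For MICA they included MFGE8 (0.988) and TMEM104 (0.988). For MICB they were DNAJB9, a chaperone of the endoplasmic reticulum (0.994), the Golgi GTPase ARF4 (0.993) and LPCAT1 (0.991). For ULBP2 they were AP1M2 (0.972), VCPIP1 (0.971) and GCNT2 (0.971). The best matches of the lower genes were TET3 (0.876) for ULBP3, TRIM38 (0.911) for RAET1E and PIK3CD (0.831) for RAET1G.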

How the data were processed

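Poly(A) RNA libraries were grouped by the sample labels into 4 groups of 4. The family, its pathway lists and the tests were chosen with earlier results of these data known. The deposited tables have 1 row per transcript in the format of Salmon. Per the file headers, the authors estimated counts for each transcript without normalizing them. The deposited TPM were scaled by effective length and to an equal sum in each library, per the file headers. Other columns give the transcript length and effective length from the authors, per the file headers. FastQC 0.11.8 and the build hg38 are named in the submitters' processing notes. The version, annotation and strand setting of the quantifier: not given in the sources used here.

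Of 197653 transcripts, 193348 (97.82%) matched GENCODE 29 by identifier without version. Their estimated counts were summed into 56865 genes and rounded. Unmatched transcripts held 0.278% to 0.325% of a library's reads. Totals were 20.3 M to 27.7 M reads per library. A count of 0 allows up to 3 reads by counting error alone.

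The test was edgeR's quasi-likelihood F-test (version 4.0.16, R 4.3.3) on genes kept by filterByExpr, with TMM scaling, in 1 fit of 16 libraries with 12 residual degrees of freedom. P-values were adjusted by Benjamini-Hochberg over the 15687 genes tested, and "called", "rose" and "fell" mean an adjusted p under 0.05. Of the 8 ligands, 7 passed the filter on low counts and RAET1L did not. CPM are reads per 1000000 of the TMM-scaled total, as mean ± SD over 4 libraries. SE is |log2 fold change| over the square root of F. The fit was tested on simulated data.

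The text names all 8 ligands, ATF4, HSF1, RBM4, KLRK1 and HCST. From 8 pathway lists (105 genes, the mitochondrially encoded ones included) it names up to 4 members with the largest called change and at least 1 CPM, fewer than the rule allows in places. Some genes that the rule took are not reported here. Genes that spell out a count of 5 or fewer, and CHEK1, EP300 and HSPA1A in p53-null cells, were named after their values were seen. For each ligand, up to 3 genes with the highest Pearson r of log2 CPM (prior count 2) are named.

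There were 26 alternatives: other scaling, DESeq2 1.42.0, other filters, length-scaled TPM counts, each library left out, a replicate block, PTPRC reads (10 or more) as a term or a split, and ULBP2, RAET1G and RAET1L summed. Deviations of same-numbered libraries correlated at 0.15 to 0.531 in all 4 pairs between the MS78 groups, so the numbers were taken to pair those groups. The libraries with PTPRC reads also have the same numbers there, and replicate 3 of Null MS78 was most like replicate 2 of Y220C MS78. Between DMSO and MS78 of a line they correlated at -0.502 to -0.042 and at -0.496 to -0.067, and between the DMSO groups at -0.057 to 0.452. Promoter sequences are from RefSeq.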

Additional observations from a re-analysis of the deposited data

Results flagged for a closer look

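For 4 ligands the difference of the responses to MS78 passed the threshold, which is a description, since the family was proposed with these values known. On the log2 scale the response was more positive in p53-Y220C cells by 1.19 for ULBP1, 0.84 for ULBP2, 0.71 for MICB and 0.53 for MICA. By the edgeR quasi-likelihood test of the difference it also differed by 0.51 for ATF4 and by 0.22 for RBM4, whose call was lost when any of several single libraries was left out.

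A single library stood apart from the other 3 of its group in 2 of the 48 groups of values examined by Dixon's criterion, which chance alone passes in about 1 of 20 groups. RAET1E was highest in replicate 3 of Null MS78, at 1.45 CPM. HSF1 was lowest in replicate 1 of Null MS78, at 187 CPM.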

How the results depend on the processing

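Over 35 ligand results and 905 refits, no value that was called before or after changed sign, 49 calls were lost and 2 gained. Values with no call did change sign: RAET1E in p53-null (-0.09 to 1.3) and p53-Y220C cells (-0.58 to 0.41), ULBP3 in p53-null cells (-0.12 to 0.06) and RAET1G between the lines under DMSO (-0.14 to 0.52). MICA, MICB and ULBP1 kept their calls under MS78 in p53-null cells and in the difference of responses under every alternative run, with ranges of 0.79 to 0.94, 0.3 to 0.38 and -1.44 to -1.26, and of 0.47 to 0.71, 0.68 to 0.74 and 1.09 to 1.27. MICA (1.38 to 1.5) and MICB (1.01 to 1.09) kept theirs in p53-Y220C cells. Calls of ULBP2 in p53-null cells, RAET1G, and MICB between the lines under DMSO were lost in many, and single refits ended those of ULBP2 between the lines under DMSO (0.65), RAET1E (0.90) and ULBP3 (0.34) under MS78. Reads limit RAET1E, RAET1G and ULBP2.

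With only libraries with PTPRC reads, a fit of 1 library against 1, 2 ligands were called between the lines under DMSO (4 in all libraries). With only those without them, 4 were called between the lines under MS78, again 1 library against 1 (7 in all), and 30, 47, 28 and 54 pathway genes under MS78 in p53-null cells, in p53-Y220C cells, in the difference and between the lines under MS78 (55, 74, 60 and 84 in all), where each response compares 1 library with 3. Calls from such lone libraries say little about stability. Leaving out 1 library gave 3 to 4 ligands in p53-null and 3 to 4 in p53-Y220C cells, 4 in every refit of the difference, 3 to 4 between the lines under DMSO and 6 to 7 under MS78. It gave 48 to 57, 65 to 77, 54 to 62, 62 to 72 and 82 to 86 pathway genes. Of all genes, 3688 to 4587, 6966 to 7647, 3685 to 4250, 7270 to 7938 and 9238 to 9867 were called in the same order. Between 15891 and 15942 genes were tested in these refits. With the replicate block, 4, 4, 4, 3 and 6 ligands were called, MICB between the lines under DMSO (-0.11) being the other call lost. Outside the MS78 groups same-numbered libraries did not deviate together throughout, although replicate 1 of the DMSO groups did (0.452), and both of these libraries hold PTPRC reads. Among all genes, length-scaled TPM counts gave 2848 calls in p53-null cells (4402 otherwise) and 2751 in the difference (4197). The libraries with PTPRC reads gave 2346, 1870 and, between the lines under DMSO, 3817 (7875), and those without gave 1070, 3490 (7611), 411 and, under MS78, 4184 (9699). How each pathway list behaves by setting, and settings for regulator genes, were examined after seeing the data.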
